A study of Bos taurus with 86 samples.

Results

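DAB2, the gene for the endocytic adaptor Disabled-2, was followed across 43 single bovine embryos. It was taken as the array rows whose only gene symbol in the platform annotation is DAB2 (gene identifier 509221), and it is 1 of 4452 such symbols on the array. Its 2 rows are duplicate spots of 1 cDNA clone, so they repeat a measurement and are not separate transcripts. The gene was chosen because its ratio stepped down from AI embryos over IVD embryos to IVF embryos in these same values. Its group levels and their differences are therefore given as a description, without a test.

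The embryos fell into 3 groups by how they were produced, with 14 labelled AI, 14 labelled IVD and 15 labelled IVF. AI and IVF are the usual abbreviations of artificial insemination and in vitro fertilization, while the labels do not spell out IVD. Total RNA of each embryo went through 3 rounds of linear amplification and was hybridised against a reference standard RNA amplified in 2 rounds. Every embryo was on 2 arrays with the dyes Cy3 and Cy5 exchanged, which gives 86 arrays, and all groups share the reference. What the reference was made from, and the stage, breed and sex of the embryos, stay unstated here. The IVD embryos labelled 12_1 to 12_4 may share an origin, and nothing says which other embryos came from separate donors, so p-values measure only the spread between these embryos.

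As background, DAB2 is an adaptor of clathrin-mediated uptake. Its phosphotyrosine-binding domain holds NPXY motifs in the cytoplasmic tails of LDL-receptor family members and integrin beta subunits, and other stretches bind the AP-2 complex, clathrin and the motor myosin VI. DAB2 also binds proteins of the TGF-beta and Wnt pathways and dampens Ras signalling. In the mouse it is required in the extraembryonic endoderm, an absorptive epithelium, and in cattle, as in other mammals, the outer epithelium of the blastocyst is the trophectoderm.

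Values are log2 ratios of embryo over reference, centred on each array and averaged over the dye swap. The deposited files do not state the direction of the ratio. All 43 embryos gave opposite signs on their 2 arrays, which shows that the ratio runs by dye but not which dye is on top. Cy5 over Cy3 was taken as likely because trophectoderm markers then lie above the reference (14 of 16 in each group), so the sign of those markers is a choice and not a result. With the opposite direction every ratio and difference below changes sign, higher and lower change places, and the sizes and the totals called stay. Correlations of DAB2 with other genes or with list medians keep their sign. Those with technical measures turn. Between 10137 and 14119 of the 16416 rows had a value on an AI array. On IVD arrays this was 13754 to 15618, and on IVF arrays 10255 to 15300. The agreement of the 2 arrays of an embryo, as a correlation across rows after turning the sign, ran from 0.816 to 0.912 for AI embryos. For IVD embryos it ran from 0.589 to 0.767, and for IVF embryos from 0.717 to 0.911. The IVD arrays thus stood apart, with more rows measured and lower agreement, and the part of this in any difference from IVD embryos was not tested. The number of arrays limits the precision of every value. In whole embryos, fewer cells of a type and less RNA per cell cannot be told apart.

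In the direction taken, DAB2 was higher in the embryos than in the reference in every group. In AI embryos its log2 ratio ran from 1.48 to 4.16 with a median of 2.98, and the mean was 2.92 ± 0.79 (SD, n = 14), or 7.59-fold over the reference. In IVD embryos it ran from 1.34 to 3.24 with a median of 2.27, and the mean was 2.31 ± 0.54 (SD, n = 14), or 4.97-fold. In IVF embryos it ran from 0.19 to 3.12 with a median of 1.46, and the mean was 1.54 ± 0.70 (SD, n = 15), or 2.91-fold. All 43 embryos lay above 0 as means of both dyes, and the 3 ranges overlapped. IVF embryo 18 had -0.49 in Cy3 and 0.88 in Cy5. Of 3433 named genes with values in enough embryos, 26 had a higher mean ratio than DAB2 in AI, 96 in IVD and 192 in IVF embryos. With the direction turned these numbers are 3406, 3336 and 3240. These ranks order enrichment over the reference and not transcript abundance.

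**Figure D1:**
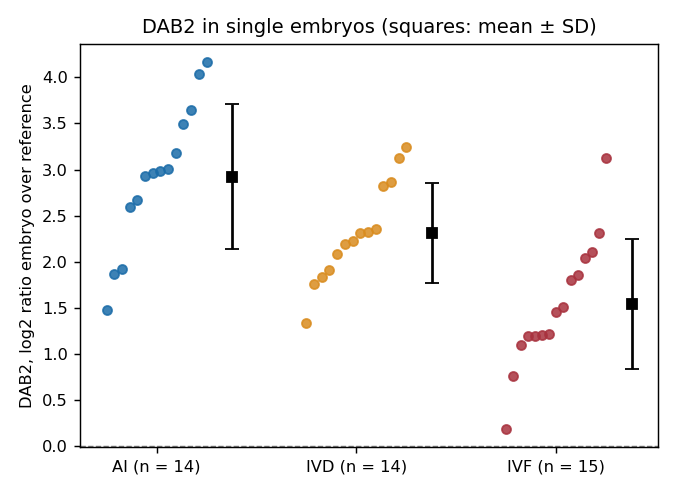
Log2 ratio of DAB2, embryo over reference, for each embryo of the AI, IVD and IVF groups, sorted by value within a group, with the group mean and SD. The means are 2.92, 2.31 and 1.54, and the highest IVF embryo, at 3.12, lies above the AI mean.

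The highest values were those of the AI embryos H1 (4.16), 14 (4.04) and 16 (3.64). AI embryos were also spread widely, with embryos 5, 7 and H5 at 1.48, 1.86 and 1.92, below the IVD mean. Among IVD embryos, embryos 11 and 12_1 were highest at 3.24 and 3.13, and embryo 3 was lowest at 1.34. The 4 IVD embryos labelled 12_1 to 12_4 had 3.13, 2.09, 2.22 and 2.83, so they did not cluster at one level. Among IVF embryos, embryo 9 stood highest at 3.12 and the next, embryo 12, had 2.32, while embryo 18 was lowest at 0.19 and embryo 13 next at 0.77.

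The mean of IVF embryos lay -1.39 from that of AI embryos on the log2 scale, a 2.61-fold lower ratio, against a pooled SD of 0.75 between embryos. In this pair, 8 of 15 IVF embryos had less than any AI embryo, 14 of 15 lay below the AI median, and 5 AI embryos lay above the highest IVF embryo. As the background in this comparison, 37.7% of 6278 features (genes, or clones without a gene name) were called by limma at an adjusted p below 0.05, 17.7% as lower in IVF embryos. DAB2 was picked on this contrast, so nothing is read from that share. Among the named genes, 18 of 3433 had a lower difference than DAB2, and for the same reason nothing is read from this rank.

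Each single step was smaller and its groups overlapped more. IVD embryos lay -0.61 from AI embryos (1.53-fold lower, pooled SD 0.68), and 1 of 14 had less than any AI embryo while 12 lay below the AI median. Here 46.5% of features were called, and 21% of all features as lower. IVF embryos lay -0.78 from IVD embryos (1.71-fold lower, pooled SD 0.63), and 7 of 15 had less than any IVD embryo while 13 lay below the IVD median. Here 47.6% of features were called, and 25.2% of all features as lower. The first step was thus within 1 SD of the spread between embryos, and 369 and 318 named genes had lower differences in the respective steps. The comparisons share groups, so they are not independent of each other.

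A lower mean in both steps was found in 752 of 6278 features by sign alone. With the steps of DAB2 itself as cut-offs, 4 features, DAB2 included, went down by at least as much in each step. DAB2 was chosen for these steps, so the count does not show how unusual it is. Of the 4, 3 had a name. The others were EGR1, an immediate early transcription factor, with -0.75 and -1.01, and IFI35, an interferon-induced gene, with -0.63 and -1.13. These were chosen with their values seen and are given without a test.

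The dyes gave different shapes of the stepwise pattern. With the embryo in Cy3, DAB2 averaged 2.92 ± 0.75 in AI, 2.60 ± 0.61 in IVD (SD, n = 14 each) and 1.55 ± 0.85 in IVF embryos (SD, n = 15). With the embryo in Cy5 the means were 2.93 ± 0.88, 2.03 ± 0.57 and 1.53 ± 0.74. From Cy3 to Cy5 the IVD mean moved by -0.56 ± 0.46 (SD, n = 14), downward in 13 of 14 embryos. The AI mean moved by 0.013 ± 0.40 (SD, n = 14) and the IVF mean by -0.023 ± 0.74 (SD, n = 15). Single IVF embryos moved by -0.955 to 1.37, the widest spread of the groups by SD, so their small mean shift hides shifts in both directions. The difference between IVF and AI embryos was -1.37 in Cy3 and -1.40 in Cy5. The first step, IVD minus AI, was -0.32 in Cy3 and -0.90 in Cy5, and the second, IVF minus IVD, was -1.04 and -0.50. Where the IVD embryos lay between the other groups thus differed with the dye. The order of the groups, for which DAB2 was chosen, did not.

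**Figure D2:**
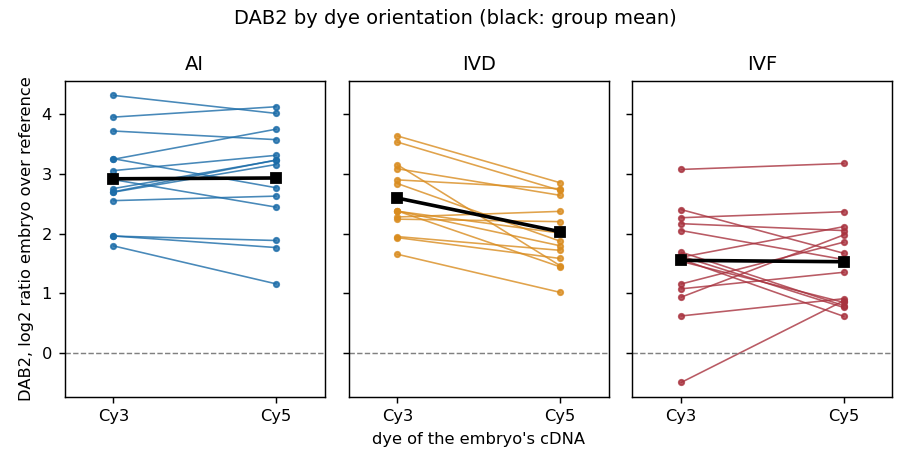
Log2 ratio of DAB2 with the embryo labelled in Cy3 and in Cy5, 1 line per embryo, in the AI, IVD and IVF groups. In 13 of 14 IVD embryos the line falls from Cy3 to Cy5, against 7 of 14 AI and 7 of 15 IVF embryos.

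The duplicate spots gave nearly the same levels. The first spot averaged 2.94 in AI, 2.29 in IVD and 1.50 in IVF embryos, and the second 2.91, 2.34 and 1.60. Across the 42 embryos with both spots measured in both dyes the spots correlated at r = 0.95, with a mean absolute difference of 0.22 and a largest one of 1.02, in IVF embryo 7. IVF embryo 1 lacked a value for the first spot on 1 of its 2 arrays and is represented by the second spot. The dyes correlated at r = 0.79 over 43 embryos, with a mean absolute difference of 0.51 and a largest one of 1.69, in IVD embryo 8. The spots share an array and a clone, so these correlations describe repeat measurement and nothing further.

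The embryos were also grouped by a technical measure, the dye-bias profile, which is the mean of an embryo's 2 arrays as deposited, where its own ratio cancels. This was chosen after the data were seen. Cut into 3 clusters, the profiles put 13 AI, 14 IVD and 2 IVF embryos together, 1 AI with 11 IVF embryos, and 2 IVF embryos alone, so dye bias ran largely with the IVF group. In the first of these, the IVF embryos had DAB2 at 1.09 and 1.19, below all 13 AI embryos (1.48 to 4.16) and all 14 IVD embryos (1.34 to 3.24). In the second, the AI embryo had 3.18, above all 11 IVF embryos (0.19 to 3.12). With the cluster as a block, DAB2 differed by -1.70 between IVF and AI embryos, by -0.58 between IVD and AI and by -1.12 between IVF and IVD embryos. The block cut the features called in IVF against AI embryos from 2365 to 819 and in IVF against IVD from 2986 to 1336, with 2987 in IVD against AI. It rests mainly on the 3 embryos whose cluster is mostly of another group.

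DAB2 stayed lower in IVD than in AI embryos and lower in IVF than in IVD embryos under each alternative run. DAB2 was chosen for this order in these same values, so this is no support for it. The difference between IVF and AI embryos ranged from -1.22, when embryo number was a block, to -1.70, with the dye-bias block, and leaving out single embryos gave -1.50 to -1.29. The first step was most open to the scaling. Without centring, IVD embryos lay -0.36 from AI embryos, in place of -0.61, while the median of all features moved from 0.06 to 0.32. Relative to that median the difference was -0.67 both with and without centring. Centring shifts all rows of an array alike, so this equality follows from the arithmetic and is no check of the step. With quantile normalization the steps were -0.77 and -0.60.

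**Figure D3:**
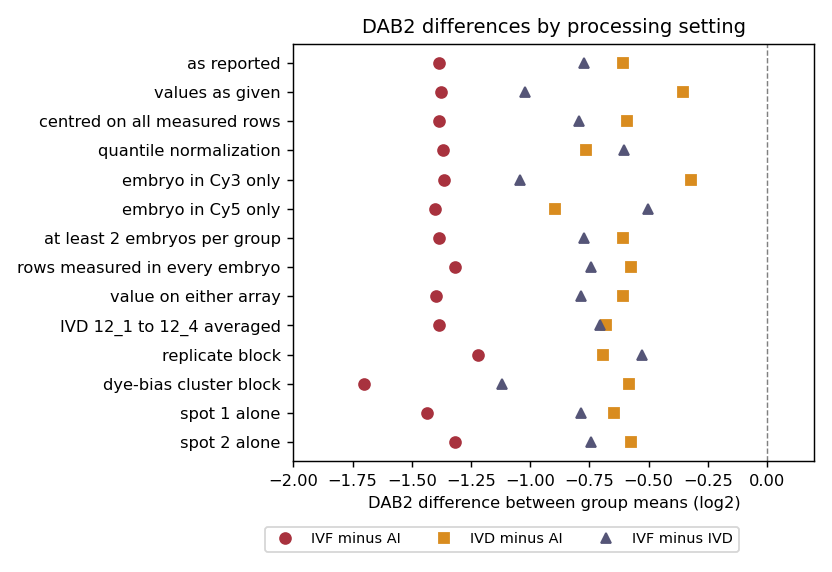
Differences of DAB2 in log2 ratio between groups under each processing alternative, where values as given are those without centring and the replicate block is the embryo number. All points lie below 0, and the points for IVF minus AI lie between -1.70 and -1.22, whereas the single steps move with the dye and with centring.

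The clathrin coat and its partners did not follow DAB2 as a list. Of 45 genes listed for clathrin-mediated uptake, 22 were on the array and 19 were measured in enough embryos. In IVF against AI embryos 8 of the 19 rose, 1 fell and 10 did not pass, with a median difference of 0.23, where 19.9% of all features rose, 17.7% fell and their median was 0.04. In IVD against AI embryos 5 rose, 4 fell and 10 did not pass, with a median of -0.04, where 25.5% of all features rose and 21% fell. In IVF against IVD embryos 9 rose, 2 fell and 8 did not pass, with a median of 0.21, where 22.3% of all features rose and 25.2% fell. The split in that last comparison was not stable. Without centring 3 rose and 3 fell (median -0.04), with the embryo in Cy3 7 rose and 4 fell (median -0.07), and in Cy5 13 rose and 2 fell (median 0.54). Calls in IVF against AI embryos went from 9 to 5 without centring, and with the dye-bias block 3 were left there and 6 in IVF against IVD embryos.

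Subunits of the AP-2 complex, which links cargo adaptors such as DAB2 to clathrin, went different ways. AP2B1, the beta subunit, had a median log2 ratio of 0.18 in AI (-0.35 to 0.47), 0.80 in IVD (0.40 to 1.32) and 1.20 in IVF embryos (0.32 to 1.50). It rose by 0.98 ± 0.10 (SE, limma, adjusted p = 1.15e-09) in IVF and by 0.66 ± 0.10 (adjusted p = 1.9e-06) in IVD against AI embryos. Its order over the groups was thus opposite to that of DAB2, although the step from IVD to IVF, 0.32 ± 0.10 (adjusted p = 0.00903), was 0.07 without centring (adjusted p = 0.732). AP2A2, an alpha subunit, fell by 0.88 ± 0.12 in IVD against AI embryos (limma adjusted p = 1.21e-07) and was 0.27 lower in IVF embryos, which did not pass (adjusted p = 0.0656). AP2M1, the mu subunit, was chosen after its values were seen and was 0.32 ± 0.10 higher in IVF than in AI embryos (adjusted p = 0.00995). Without centring it was 0.31 and did not pass (adjusted p = 0.171). With the dye-bias block the rise of AP2B1 in IVF against AI embryos kept its call, while AP2M1 there (0.36, adjusted p = 0.151) and the last step of AP2B1 (0.44, adjusted p = 0.0576) lost theirs at sizes no smaller than before.

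Further partners moved in either direction. CD2AP, an adaptor that ties receptors to actin, rose by 0.74 ± 0.24 in IVF (limma adjusted p = 0.0146) and by 0.89 ± 0.25 in IVD embryos (adjusted p = 0.00294) against AI. GAK, a kinase that helps strip clathrin from vesicles, rose by 0.37 ± 0.10 in IVF against AI (adjusted p = 0.00228) and by 0.75 ± 0.10 in IVF against IVD embryos (adjusted p = 1.94e-08). In IVD against AI embryos GAK fell by 0.38 ± 0.10 (adjusted p = 0.0015), a call lost without centring (-0.13, adjusted p = 0.453). MYO6, the motor that DAB2 binds, and the genes HIP1R, CLTC and CLTA were chosen after their values were seen. MYO6 had medians of -0.57, -0.21 and -0.76 in AI, IVD and IVF embryos, and the difference between IVF and AI embryos, -0.14 ± 0.17, did not pass (limma adjusted p = 0.531). It fell by 0.57 ± 0.17 in IVF against IVD embryos (adjusted p = 0.00513), a call lost in Cy5 (-0.30, adjusted p = 0.182) and, at -0.58, with the dye-bias block (adjusted p = 0.144). HIP1R, which links clathrin to actin, was the 1 gene of the list that fell in IVF against AI embryos, by 0.43 ± 0.10 (adjusted p = 9.36e-04), and it also fell in IVF against IVD embryos, by 0.52 ± 0.10 (adjusted p = 4.56e-05). HIP1R was thus lowest in IVF embryos, as DAB2 was, but had no lower mean in IVD than in AI embryos (0.09, adjusted p = 0.509). CLTC, the clathrin heavy chain, rose by 0.23 ± 0.09 in IVF against AI embryos (adjusted p = 0.0294; 0.24 and 0.208 without centring), and CLTA, a light chain, passed in none. With the dye-bias block CD2AP (0.72, adjusted p = 0.2), HIP1R (-0.40, adjusted p = 0.106) and GAK (0.29, adjusted p = 0.193) no longer passed in IVF against AI embryos although their sizes moved little, while CLTC shrank to 0.10 (adjusted p = 0.683). The calls of GAK and HIP1R in IVF against IVD embryos were kept.

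**Figure D4:**
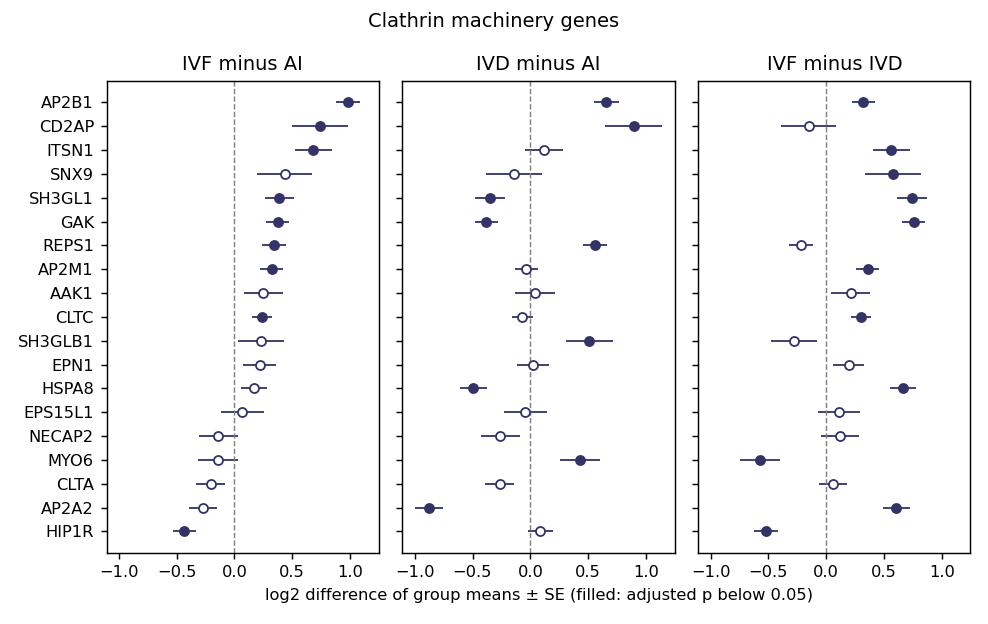
Differences in log2 ratio of the 19 measured genes of the clathrin list in the 3 comparisons, with those that passed the limma test marked. AP2B1 is higher in both IVF and IVD than in AI embryos, and HIP1R is the 1 gene called lower in IVF than in AI embryos.

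Of 10 adaptors with a phosphotyrosine-binding domain listed as relatives of DAB2, only SHC1, an adaptor of growth factor receptors, was measured in enough embryos. SHC1 rose by 0.93 ± 0.19 in IVF against IVD embryos (limma adjusted p = 1.09e-04), the direction opposite to that of DAB2. It was 0.46 ± 0.19 higher in IVF than in AI embryos, which did not pass (adjusted p = 0.0537). It was 0.46 ± 0.20 lower in IVD than in AI embryos (adjusted p = 0.0492), a call that 6 alternatives ended, with -0.21 and an adjusted p of 0.497 without centring.

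Of 23 receptors listed as cargo, 6 were measured in enough embryos, and those of the LDL-receptor family were not among them. In IVF against AI embryos 1 rose, 1 fell and 4 did not pass. In IVD against AI embryos 1 rose, 2 fell and 3 did not pass, and in IVF against IVD embryos 1 rose and 5 did not pass. Of all features 19.9%, 25.5% and 22.3% rose and 17.7%, 21% and 25.2% fell in these comparisons, so the counts of so few receptors do not stand apart from them. ITGB1, an integrin beta subunit, rose by 0.60 ± 0.14 in IVF (limma adjusted p = 7.21e-04) and by 0.74 ± 0.14 in IVD embryos (adjusted p = 3.89e-05) against AI. ITGB5, another integrin beta subunit, fell by 0.47 ± 0.09 in IVD (adjusted p = 6.51e-05) and by 0.30 ± 0.09 in IVF embryos (adjusted p = 0.00936). Without centring ITGB5 differed by -0.22 and -0.29 and passed in neither (adjusted p = 0.252 and 0.164). With the dye-bias block neither integrin passed in IVF against AI embryos, with 0.49 for ITGB1 (adjusted p = 0.0912) and -0.39 for ITGB5 (adjusted p = 0.0736).

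FOLR1, a folate receptor, had medians of 4.48 in AI (3.85 to 5.56), 4.01 in IVD (3.15 to 4.51) and 4.33 in IVF embryos (3.25 to 5.19). It fell by 0.61 ± 0.19 in IVD against AI embryos (limma adjusted p = 0.00765), but by 0.16 with the embryo in Cy3 (adjusted p = 0.7) and by 1.10 in Cy5 (adjusted p = 1.14e-04). IGF2R, which carries IGF2 to lysosomes, rose by 0.36 ± 0.11 in IVF against IVD embryos (adjusted p = 0.00806), and that call was lost in Cy3 (0.09, adjusted p = 0.563) without centring (0.12, adjusted p = 0.644) and with the dye-bias block (0.50, adjusted p = 0.0528). TGFBR3, a TGF-beta co-receptor, and APLP2, a relative of the amyloid precursor with an NPXY-type tail, passed in no comparison. TGFBR3 was 0.31 higher and APLP2 0.15 lower in IVF than in AI embryos (adjusted p = 0.0509 and 0.245).

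In the TGF-beta list, 4 of 26 genes were measured. None passed by limma in IVF against AI embryos, where 37.7% of all features were called. In IVD against AI embryos 2 of 4 were called, both higher, and in IVF against IVD embryos 3 of 4, all lower, where 46.5% and 47.6% of all features were called. SMAD1, which carries BMP signals to the nucleus, rose by 1.27 ± 0.20 in IVD against AI (limma adjusted p = 2.56e-06) and fell by 1.40 ± 0.20 in IVF against IVD embryos (adjusted p = 2.09e-07). IVF and AI embryos differed by -0.13 in SMAD1 (adjusted p = 0.627). ACVR2A, an activin receptor, fell by 0.95 ± 0.21 in IVF against IVD embryos (adjusted p = 2.72e-04), by 0.59 over rows measured in every embryo, and did not pass with the dye-bias block (-0.85, adjusted p = 0.0882). SMAD1 kept its calls there. Both genes had their highest mean in IVD embryos, where DAB2 was intermediate. TGFBR2, a TGF-beta receptor, had calls of 0.39 in IVD against AI embryos and of -0.37 in IVF against IVD embryos. Both were lost, among others, when embryo number was a block (0.16 and -0.15, limma adjusted p = 0.459 and 0.415).

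In the Wnt list, 11 of 26 genes were measured. In IVF against AI embryos 2 rose, 1 fell and 8 did not pass, in IVD against AI 3 rose, 3 fell and 5 did not pass, and in IVF against IVD 2 rose, 1 fell and 8 did not pass. The 3, 6 and 3 called of 11 stand beside 37.7%, 46.5% and 47.6% of all features. FZD4, a Wnt receptor, rose by 1.86 ± 0.35 in IVF (limma adjusted p = 4.75e-05) and by 2.09 ± 0.35 in IVD against AI embryos (adjusted p = 5.41e-06). AXIN2, a Wnt target and negative regulator, rose by 1.16 ± 0.19 in IVF against IVD embryos (adjusted p = 5.86e-06) and fell by 0.84 ± 0.19 in IVD against AI embryos (adjusted p = 4.2e-04), the latter lost in Cy3 (-0.38, adjusted p = 0.189). GSK3A, a kinase of the beta-catenin destruction complex, fell by 0.70 ± 0.10 in IVD against AI embryos (adjusted p = 3.89e-07), and by 0.43 without centring. PPP1CA, a phosphatase catalytic subunit, fell by 0.36 ± 0.13 in IVF against AI embryos (adjusted p = 0.0262), which at -0.35 did not pass without centring (adjusted p = 0.157). The FZD4 difference between IVF and AI embryos was 1.00 with the dye-bias block and did not pass (adjusted p = 0.228).

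In the Ras, Src and MAPK list, 9 of 20 genes were measured. In IVF against AI embryos 1 rose, 1 fell and 7 did not pass, in IVD against AI 2 rose, 3 fell and 4 did not pass, and in IVF against IVD 3 rose, 2 fell and 4 did not pass. The 2, 5 and 5 called of 9 stand beside the same 37.7%, 46.5% and 47.6%. MAPK3, the kinase ERK1, rose by 0.76 ± 0.17 in IVF against AI (limma adjusted p = 6.49e-04) and by 0.85 ± 0.17 in IVF against IVD embryos (adjusted p = 8.28e-05). BRAF, which acts upstream of it, rose by 0.85 ± 0.23 in IVD against AI (adjusted p = 0.00273) and fell by 0.84 ± 0.23 in IVF against IVD embryos (adjusted p = 0.00225). FOS, an immediate early gene, fell by 1.07 ± 0.33 in IVD (adjusted p = 0.00663) and by 0.80 ± 0.32 in IVF embryos (adjusted p = 0.0433) against AI, and without centring, at -0.82 and -0.80, neither passed (adjusted p = 0.0547 and 0.0929). With the dye-bias block MAPK3 had 0.52 and 0.59 (adjusted p = 0.215 and 0.139) and BRAF -0.64 in IVF against IVD embryos (adjusted p = 0.273), so these calls were lost. FOS had -0.38 in IVF against AI embryos there (adjusted p = 0.676).

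Markers of the trophectoderm, which set the direction, had a mean ratio above 0 for 14 of 16 measured genes of 30 listed in each group, and for 2 of 16 with the direction turned. The median of the 16 was 2.06 in AI, 1.84 in IVD and 2.16 in IVF embryos. The median of these markers in single embryos ran from 1.67 to 2.58 among AI embryos. Among IVD embryos it ran from 0.93 to 2.63, and among IVF embryos from 1.60 to 2.51. These are ratios against a reference of unstated makeup and show enrichment over it, not a cell type of origin of DAB2. The transcription factors CDX2, GATA4, GATA6, SOX17, POU5F1, NANOG and SOX2 are not analysed here.

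Trophectoderm markers that passed went in both directions. Their share was near that of all features in IVF against AI embryos and higher in the other comparisons, which was not tested. In IVF against AI embryos 2 rose, 4 fell and 10 did not pass (median -0.09), in IVD against AI 5 rose, 5 fell and 6 did not pass (median -0.05), and in IVF against IVD 4 rose, 5 fell and 7 did not pass (median -0.0025). The 6, 10 and 9 called of 16 stand beside 37.7%, 46.5% and 47.6% of all features. DSC2, a desmosomal cadherin, fell by 1.09 ± 0.26 in IVD against AI (limma adjusted p = 6.83e-04) and rose by 1.46 ± 0.25 in IVF against IVD embryos (adjusted p = 6.93e-06), the latter lost with the dye-bias block (0.94, adjusted p = 0.125). SSLP1, a secreted protein gene expressed in bovine trophoblast, fell by 1.12 ± 0.35 in IVD against AI embryos (adjusted p = 0.00776). It fell by 1.01 ± 0.35 in IVF against AI embryos (adjusted p = 0.0191), a call lost in Cy5 (-0.69, adjusted p = 0.138). With the dye-bias block that difference was -1.71 (adjusted p = 0.0336). PTGS2, a prostaglandin synthase, rose by 1.03 ± 0.14 in IVD against AI embryos (adjusted p = 1.09e-07), but by 0.24 with quantile normalization (adjusted p = 0.0858).

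No measured trophectoderm transcription factor was called lower in both steps, though TFAP2A and HAND1 had means in the order of DAB2. TFAP2A had medians of 0.59 in AI (-0.58 to 1.48), 0.03 in IVD (-1.09 to 0.47) and -0.11 in IVF embryos (-1.27 to 0.47). It fell by 0.64 ± 0.19 in IVF (limma adjusted p = 0.00838) and by 0.63 ± 0.20 in IVD against AI embryos (adjusted p = 0.00794), with no second step (-0.01, adjusted p = 0.973). The first of these was lost in Cy3 (-0.40, adjusted p = 0.123) and the second without centring (-0.40, adjusted p = 0.103). TFAP2C rose by 1.04 ± 0.17 in IVD against AI (adjusted p = 2.83e-06) and fell by 1.11 ± 0.17 in IVF against IVD embryos (adjusted p = 4.25e-07), with 0.69 and -0.70 under quantile normalization. With the dye-bias block TFAP2A lay -0.98 lower in IVF than in AI embryos (adjusted p = 0.0334). GATA3 and GATA2 differed between IVF and AI embryos by -0.11 and 0.11 and did not pass (adjusted p = 0.73 and 0.332). HAND1 and TEAD4 were chosen after their values were seen. HAND1 had means of -0.26, -0.52 and -0.56 and was called lower than in AI embryos only in Cy3. TEAD4 rose by 0.30 in IVF and 0.29 in IVD against AI embryos (limma adjusted p = 0.0178 and 0.0197), calls lost in some alternatives. Over deviations from the group means, r with DAB2 was 0.39 for TFAP2A, 0.26 for GATA2 and 0.18 for HAND1. It was 0.07 for TFAP2C, -0.02 for GATA3 and -0.09 for TEAD4, and none was tested.

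Of the 9 measured hypoblast markers, the tissue corresponding to the extraembryonic endoderm, 3 lay above 0 in AI and 2 in IVD and in IVF embryos (6, 7 and 7 with the direction turned), with medians of -1.19, -0.66 and -0.88. In IVF against AI embryos 1 rose, 2 fell and 6 did not pass, and in the other comparisons 2 rose, 2 fell and 5 did not pass. The 3, 4 and 4 called of 9 are near the 37.7%, 46.5% and 47.6% of all features. FN1, fibronectin, had medians of 0.27 in AI (-0.69 to 0.55), -0.09 in IVD (-0.98 to 0.16) and -0.61 in IVF embryos (-1.53 to -0.15). It fell by 0.42 ± 0.14 in IVD against AI (limma adjusted p = 0.0109) and by 0.37 ± 0.13 in IVF against IVD embryos (adjusted p = 0.0217). It was the 1 gene of 82 measured on any list that was called lower in both steps, against 53 of 6278 features, or 0.844%. The first FN1 step was lost without centring (-0.16, adjusted p = 0.484) and the second in Cy3 (-0.15, adjusted p = 0.381) and with the dye-bias block (-0.18, adjusted p = 0.617). LAMB1, a laminin subunit, rose by 1.12 ± 0.16 in IVF (adjusted p = 4.12e-07) and by 1.46 ± 0.16 in IVD against AI embryos (adjusted p = 6.22e-10). COL4A1, a basement membrane collagen, fell by 0.67 ± 0.15 in IVD against AI embryos (adjusted p = 3.47e-04), lost without centring (-0.41, adjusted p = 0.0884). CITED1 rose by 0.71 ± 0.26 there (adjusted p = 0.0259), and in Cy5, at 0.78, did not pass (adjusted p = 0.0552).

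**Figure D5:**
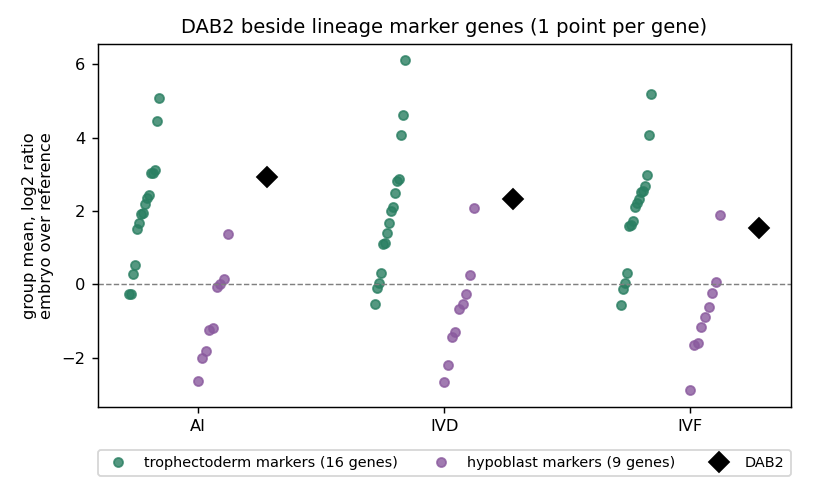
Group mean log2 ratio of DAB2 and of each trophectoderm and hypoblast marker gene, 1 point per gene, in AI, IVD and IVF embryos. In the direction taken, 14 of 16 trophectoderm genes lie above 0 in each group. Of 9 hypoblast genes 3 lie above 0 in AI and 2 in IVD and in IVF embryos. The median of neither list has the order of groups seen for DAB2.

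Markers of other cells that an embryo sample could hold were few. Of 3 measured inner cell mass markers 1 fell and none rose in IVF against AI embryos. In IVD against AI and in IVF against IVD embryos 1 rose and 1 fell. Of all features 37.7%, 46.5% and 47.6% were called in these comparisons. KLF4 fell by 0.46 ± 0.18 in IVF against AI embryos (limma adjusted p = 0.0363) and by 1.07 ± 0.18 in IVF against IVD embryos (adjusted p = 3.26e-06). The first, at -0.43, did not pass without centring (adjusted p = 0.127), and with the dye-bias block neither passed (-0.17 and -0.75, adjusted p = 0.74 and 0.065). SPP1, a secreted phosphoprotein of the same list, rose by 0.99 ± 0.21 in IVF against IVD embryos (adjusted p = 1.46e-04), which at 0.96 did not pass with the dye-bias block (adjusted p = 0.06). Of 4 measured cumulus and granulosa markers 3 rose in IVF against AI embryos, 1 in IVD against AI and 2 in IVF against IVD, where 19.9%, 25.5% and 22.3% of all features rose. Their median ratio was -0.35 in AI, -0.07 in IVD and -0.23 in IVF embryos, with 0, 2 and 1 of the 4 above 0 (4, 2 and 3 with the direction turned). HSD3B1, a steroidogenic enzyme, rose by 1.03 in IVF against AI embryos (adjusted p = 0.0141), a call lost with the dye-bias block (0.40, adjusted p = 0.678). CD14, the 1 blood and immune marker measured, passed in no comparison. The part of these cells in the DAB2 values was not tested.

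Genes were ranked by their likeness to DAB2 among 2344 named genes measured in every embryo. Over all 43 embryos the highest Pearson correlations belonged to IGHE (0.68), PFDN2, a prefoldin subunit (0.67), TM2D1 (0.66), HES1, a Notch target (0.65), TOMM7, of the mitochondrial import pore (0.65), and ZCCHC17 (0.64), in a range from -0.60 to 0.68. That ranking contains the difference between groups for which DAB2 was chosen, and every value shares its arrays with DAB2, so it has no test. Over deviations from the group means the 6 highest were IGHE (0.53), PDCD6 (0.51), SON (0.51), TBL1XR1 (0.47), MAP1B (0.46) and SYNCRIP (0.44), in a range from -0.57 to 0.53. IGHE, annotated as an immunoglobulin heavy chain, was the 1 gene on both lists, with r of 0.57 in AI, 0.63 in IVD and 0.48 in IVF embryos.

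The 6 genes ranked by deviations from the group means were picked for that correlation. Their values by group are parts of it and have no test. Apart from IGHE, SON had a like correlation in each group and the rest were uneven. PDCD6, a calcium-binding protein of vesicle traffic, correlated at 0.80 in AI, 0.53 in IVD and 0.17 in IVF embryos. It rose by 0.89 ± 0.12 in IVD against AI embryos (limma adjusted p = 6.94e-08), where DAB2 was lower. SON, a splicing cofactor, had 0.52, 0.45 and 0.57 in the 3 groups. TBL1XR1, a transcriptional co-regulator, had 0.80, 0.18 and 0.04, and SYNCRIP, an RNA-binding protein, had 0.70, 0.08 and 0.30. SYNCRIP fell by 1.04 in IVF against IVD embryos (limma adjusted p = 4.75e-07), and by 1.61 with the dye-bias block, and MAP1B, a microtubule-associated protein, fell by 0.92 there (adjusted p = 2.61e-04), the latter lost in Cy5 (-0.49, adjusted p = 0.162). Apart from IGHE, a high rank thus did not go with a fall in both IVD and IVF against AI embryos among these 6 genes. IGHE fell by 0.49 ± 0.11 in IVF (adjusted p = 3.99e-04) and by 0.42 ± 0.11 in IVD embryos (adjusted p = 0.0017; -0.16 and 0.395 without centring).

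Within groups DAB2 was set against the medians of marker and partner lists and against technical measures, which gave 24 relations tested by permutation. None passed after Benjamini-Hochberg adjustment (smallest adjusted p = 0.739), and 1 had an unadjusted Pearson p below 0.05, against 0 for Spearman. That was the median of trophectoderm markers in IVD embryos, with r = 0.54 (permutation p = 0.0485, adjusted p = 0.739) and rho = 0.52 (p = 0.0616), and r = 0.53 without the 2 embryos farthest from the median. In AI and IVF embryos the same relation had r = -0.14 (permutation p = 0.63) and 0.05 (p = 0.869), and -0.60 and 0.12 without the 2 farthest embryos. The median of the clathrin list had r = 0.34, 0.49 and -0.29 in AI, IVD and IVF embryos (permutation p = 0.23, 0.0784 and 0.295), and 0.08, 0.41 and -0.41 without the 2 farthest. The number of rows without a value had r = 0.31 in AI, 0.03 in IVD and 0.00052 in IVF embryos (permutation p = 0.273, 0.92 and 0.999).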

How the data were processed

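Dual-colour cDNA arrays of 43 embryos against a reference were read from the deposited table of 16416 rows and 86 arrays. Its values are log2 ratios, by their range and the authors' labels of a reference design; the sources used here name no background correction, normalization or software behind them. No value stood in 20.1% of cells, and array medians ran from -2.22 to 1.06. Genes were named from the platform annotation, where 11196 rows had 1 symbol, 190 several and 5030 none listed; 11182 matched the RefSeq gene table.

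Arrays were centred on the median of 5558 rows that all of them measured, Cy3 arrays were sign-turned, the 2 arrays of an embryo averaged, and 10757 rows with values in at least 7 embryos per group averaged to 6278 features (3433 named genes). limma 3.58.1 in R 4.3.3 was fitted to all features and groups with Benjamini-Hochberg adjustment and a threshold of 0.05. Permutation tests used 100000 resamples. In simulated data with 200 features shifted by 1 in IVF embryos, 94% were recovered in IVF against AI with 1.57% false calls. The simulated noise was independent between features and had no array or dye structure, so these rates do not carry over to the data. Lists, members and alternatives were chosen with earlier results of these data known. The text names DAB2, the 6 genes most like it by each measure, up to 4 called members per list by size of change, all measured adaptors and receptors, and lineage transcription factors. Of 21 pairs of embryos with the same number in different groups, 3 correlated above 0.1, so the numbers were not taken to pair embryos.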

Additional observations from a re-analysis of the deposited data

How the results depend on the processing

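All 125 alternative values of the DAB2 differences, which have no test, kept their direction and moved by less than the SD between embryos. DAB2 was chosen for this direction in these same values, so this is no support for it. Most of the alternatives leave out a single embryo, and asking for at least 2 embryos per group left the DAB2 differences unchanged. None of 48 alternative values of the relations passed by permutation after adjustment, and 7 changed sign, as did 6 of 24 relations without the 2 farthest embryos. Leaving out single embryos gave DAB2 -1.50 to -1.29 for IVF minus AI, -0.72 to -0.51 for IVD minus AI and -0.89 to -0.68 for IVF minus IVD. With the embryo number as a block DAB2 had -1.22, -0.69 and -0.53, and 1684, 2112 and 2557 features were called, against 2365, 2921 and 2986; the correlation of same-numbered embryos ran from -0.19 to 0.21. Without centring 1325 features were called in IVF minus AI, and the clathrin list had 5 and 6 calls in place of 9 and 11. The split of higher and lower calls without centring was 2405 and 414 in IVD minus AI (1603 and 1318 centred) and 465 and 2198 in IVF minus IVD (1403 and 1583). In Cy3 alone the splits were 2003 and 1075 and 1165 and 2307, and in Cy5 alone IVF minus IVD had 2083 and 1315. With the dye-bias cluster as a block, chosen after seeing the data, 819 features were called in IVF minus AI and 1336 in IVF minus IVD, and 3 and 6 clathrin genes. With rows measured in every embryo, which leaves 3533 features, 1571, 1770 and 1880 were called. Reversed signs, whose cause was not tested, were those of AQP3 in IVD minus AI with quantile normalization (-0.32); of CD14 (-0.61), CYP11A1 (-0.42), EPS15L1 (-0.47) and TEAD4 (-0.33) in IVF minus IVD in Cy3; of EPS15L1 in IVF minus AI in Cy3 (-0.60); of COL4A2 in IVF minus IVD in Cy5 (0.46); of CYP19A1 (-0.032) and GATA2 (-0.028) in IVF minus IVD without centring; and of GATA3 in IVF minus AI with values of either array (0.58). These are the sign changes of values called as reported or in the alternative. Of the other values for listed or ranked genes, 2643 kept their outcome, whether called or not, 107 gained a call and 222 lost one. Sign changes of values called in neither setting are counted among the 2643.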

Other observations

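Some AI embryos carry an H in their label, whose meaning the labels do not give. Their DAB2 log2 ratios were 4.16, 3.50 and 1.92, which spans most of the range of the other AI embryos, 1.48 to 4.04.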
